A study of Mus musculus with 2 samples.

Results

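The replication-dependent histone genes encode the linker histone H1 and the core histones H2A, H2B, H3 and H4 that package newly copied DNA. They were taken as the protein-coding rows of the expression table whose symbols follow the naming of the clustered histone genes (H1f1 to H1f6, H2ac, H2bc, H3c and H4c with a number, and H4f16). This rule gave 65 genes of 55323 rows, with 6 genes for H1, 17 for H2A, 17 for H2B, 12 for H3 and 13 for H4. All 65 carried a former symbol of the Hist series in the GENCODE M21 annotation of GRCm38, in which 54 lie on chromosome 13, 10 on chromosome 3 and 1 (H4f16) on chromosome 6.

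RNA had been sequenced from TgS1, a mouse cell line that the labels describe as Schwann cells (the glia of peripheral nerve) with the genotype TTR V30M tg, a transgene for the human transthyretin variant of hereditary amyloidosis. One library came from cells in long-term culture in DMEM, a common basal medium, and the other from cells in long-term culture in SCM, a name the labels do not spell out. Both share the line and the transgene, and the promoter that drives the transgene is not stated in the sources used. With a single library for each medium, nothing below has a replicate check, no p-value is given, and "higher" or "lower" compares those libraries.

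Clustered histone genes are transcribed mainly while DNA is being replicated. Most of their mRNAs carry no introns and no poly(A) tail. They end just after a short stem-loop, which is bound by the stem-loop binding protein Slbp and guides cleavage, translation and decay. A core particle of H2A, H2B, H3 and H4 winds DNA around itself, and H1 binds where the DNA enters and leaves it. Some clustered genes, above all of the H1 and H2B kinds, also give longer polyadenylated mRNAs in cells that have stopped dividing. Replacement histones such as H3.3 and H1.0 are made outside S phase from single genes with ordinary mRNAs.

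The stem-loop is shown because it is the shared mark of these mRNAs and because its letters differ between H4 and the other classes. A window of 16 bases with GG at the start, CC at the end, TTT in the loop and 6 paired positions was found in annotated transcripts of 42 of the 65 genes, against 0.386% of 55450 genes in the GENCODE M21 transcript file. In the following transcript sequences, read 5′ to 3′, capitals mark the stem-loop.
H1f2: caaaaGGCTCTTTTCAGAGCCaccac
H1f4: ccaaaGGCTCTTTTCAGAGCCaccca
H2ac20: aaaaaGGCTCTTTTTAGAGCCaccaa
H2bc11: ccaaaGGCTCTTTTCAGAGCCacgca
H3c6: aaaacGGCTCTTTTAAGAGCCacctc
H4c4: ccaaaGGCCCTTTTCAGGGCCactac
H4c14: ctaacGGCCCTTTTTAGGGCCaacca
The form of H1f2, H1f4 and H2bc11 was the commonest, in 24 genes. All 11 H4 genes with a stem-loop had a stem of their own, and the form of H4c4 occurred in 7 of them and in no other class. H2ac20 was alone in its form. No match says only that these letters are not in an annotated transcript of the gene.

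The labelled cell type was checked against its markers. All 8 Schwann cell markers reached 1 FPKM in either library or both (FPKM are reads per kilobase of gene and per 1000000 reads), with Sox10, the lineage transcription factor, at 125.5 FPKM in DMEM and 113 in SCM. The summed markers of fibroblasts, macrophages, endothelium and muscle lay between 0.0277 and 1.51 FPKM in either library. The neuronal list summed to 60.3 and 45.1 FPKM, nearly all of it from Tubb3, and Rbfox3 and Syt1 had 0 reads in both. The libraries held 29085791 reads in DMEM and 36666676 in SCM, recovered from the deposited values. At these depths a count of 0 allows up to 3 reads, which for a gene of 500 bases is 0.206 FPKM in DMEM and 0.164 in SCM. Ratios below are of reads per 1000000 reads (the same as FPKM ratios for a single gene), with 95% exact (Clopper-Pearson) intervals. Intervals and floors cover counting error only, and amplified reads without molecular identifiers may make them too narrow.

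The histone classes differed in direction: H1 and H2B sums were lower in SCM, H2A and H4 sums higher, and the H3 interval held 1. The 6 H1 genes together had 5455 reads in DMEM and 4133 in SCM, 1.66-fold lower in SCM relative to depth (1.598 to 1.73). The 17 H2A genes had 975 and 1698 reads, a ratio of SCM to DMEM of 1.38 (1.28 to 1.496), and the 13 H4 genes 493 and 872 reads, a ratio of 1.403 (1.25 to 1.57). The 12 H3 genes had 223 and 281 reads, a ratio of 0.9996 (0.835 to 1.197). The 17 H2B genes had 1106 and 1230 reads, a ratio of 0.882 (0.813 to 0.958), which turned to 1.08 (0.949 to 1.24) without H2bc4. In bulk RNA, fewer cells that express a gene and less RNA per cell cannot be told apart.

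The 59 core genes together had 2797 reads in DMEM against 4081 in SCM, a ratio of 1.16 (1.10 to 1.21), and 1.07 (1.01 to 1.13) without H2ac20. Beside the H1 ratio of 0.601, this made core reads higher against H1 reads by 1.93 (1.81 to 2.05), most of it from the lower H1 reads. Measured against H1 in the same way, H2A had a ratio of 2.30 (2.10 to 2.51), H4 2.33 (2.07 to 2.63), H3 1.66 (1.38 to 2.001) and H2B 1.47 (1.34 to 1.61). Within the core classes, H4 against H2B gave 1.59 (1.38 to 1.83) and H4 against H3 1.403 (1.13 to 1.74), while H2A against H4 gave 0.985 (0.857 to 1.13). In summed FPKM, H1 made up 43.6% of the group in DMEM and 26.6% in SCM. These shares also depend on how reads that match several genes were counted, which is not stated. The sum over all 65 genes depended on the unit, at 0.790 (0.766 to 0.814) in reads and 0.966 in FPKM, and on which genes were summed, at 1.34 (1.26 to 1.43) for genes of up to 1000 bases. H1f2, H1f3 and H1f4 are all over 1000 bases, so this split by length also sets most H1 reads apart.

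**Figure D1:**
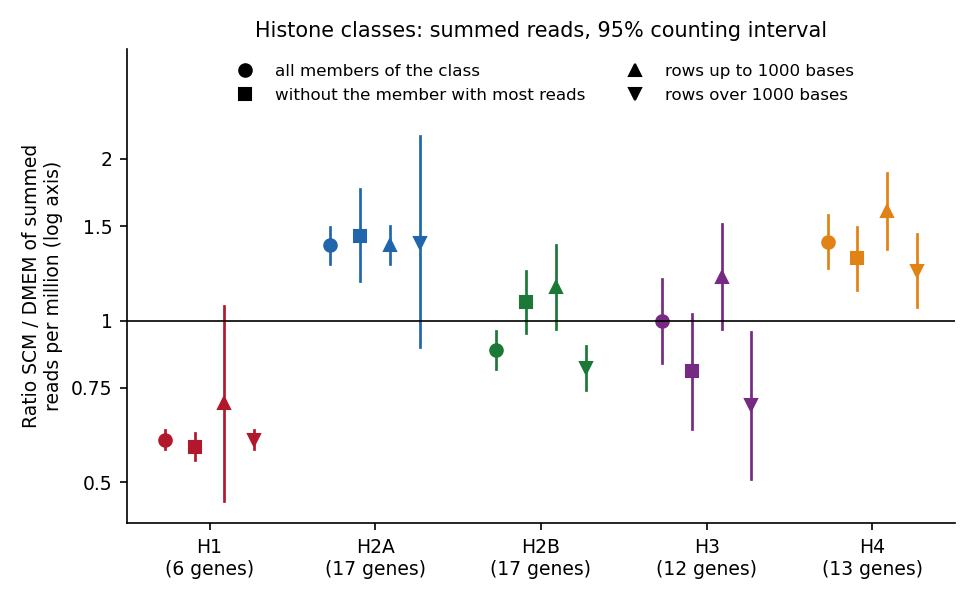
Depth-scaled ratio of summed reads in SCM to DMEM (log axis) for each histone class, with 95% counting intervals, for all genes of the class, without the gene with most reads, and for genes of up to or over 1000 bases. All H1 points lie below 1 and all H2A and H4 points above 1, whereas H2B (0.882 for all genes) and H3 (0.9996) lie on both sides.

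A few genes made up most of the signal. H2ac20, H1f2, H1f4 and H2bc4 together held 73.3% of the summed FPKM of the group in DMEM and 64.1% in SCM. They stood at ranks 645, 661, 738 and 2069 of all rows by FPKM in DMEM, and at 424, 1388, 1337 and 2684 in SCM. Of the 65 genes, 29 had at least 20 reads in 1 or both libraries, 29 had fewer, and 7 had 0 reads in both. H2ac19, H2bc3, H2bc11, H3c11, H4c6 and H4c11 reached 20 reads in SCM only, and H2bc14 and H3c15 in DMEM only. For these genes the filter itself favours the side on which they lie. The median over all 65 was 0.418 FPKM in the DMEM library against 0.644 in SCM, beside 0.338 and 0.365 over all protein-coding rows. Gene by gene, the median log2 ratio of FPKM + 1 over the 65 was 0. Medians this low stand for few reads in a short gene.

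**Figure D2:**
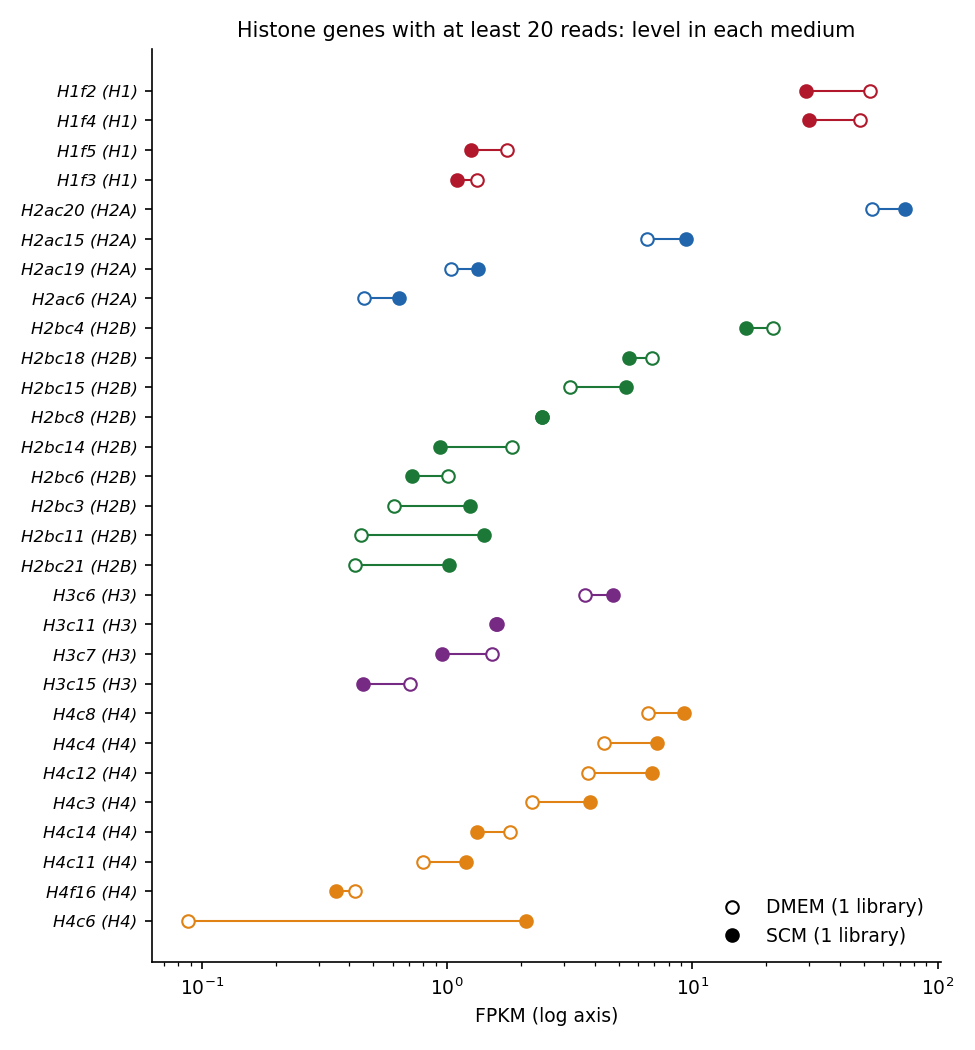
FPKM (log axis) of the 29 histone genes with at least 20 reads in 1 or both libraries, by class, with open points for the DMEM library and filled points for the SCM library. Filled points lie left of open ones in all 4 H1 genes, and right of them in all 4 H2A genes and in 6 of 8 H4 genes. Among these, H2ac19, H4c6 and H4c11 reached 20 reads in SCM only, which favours that side.

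By the measure log2((FPKM in SCM + 1) / (FPKM in DMEM + 1)), which understates the ratio of low genes, 28 genes could be compared because either library or both reached 1 FPKM. At a 2-fold threshold 1 gene, H4c6, was higher in SCM and 0 were lower, against 3.10% and 2.80% (5.89% in either direction) of all 12334 rows with that level. At 1.5-fold, 5 genes were higher (H2bc11, H2bc15, H4c12, H4c4 and H4c6) and 2 lower (H1f2 and H1f4), where 7.90% of all rows were higher and 7.52% lower (15.4% in all). The measure was above 0 in 15 of the 28 genes and below 0 in 13, beside 45.8% and 54.2% of all rows. Its median was 0.10, beside -0.03 over all such rows. Among the 29 genes with at least 20 reads, the counting interval lay above 1 in 10 and below 1 in 7, where 29.2% and 34.4% of all 14550 rows with that many reads did so (63.6% in either direction). At 2-fold the shares of the group lay near this background, while at 1.5-fold the share of higher genes (5 of 28) was above the 7.90% of all rows. Whether the group differs from this background was not tested. By class, the interval lay below 1 in 3 of 4 H1 genes and above 1 in 0, and above 1 in 5 of 8 H4 genes and below 1 in 0. H2bc3, H2bc11, H4c6 and H4c11 passed both filters (1 FPKM and 20 reads) through SCM only. H2bc14 passed both through DMEM only. The filter of 1 FPKM was also passed by H2bc21 through SCM only. It was passed through DMEM only by H2bc6, H3c7 and a gene with fewer than 20 reads. For all of these genes the filters favour their direction in the counts above.

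**Figure D3:**
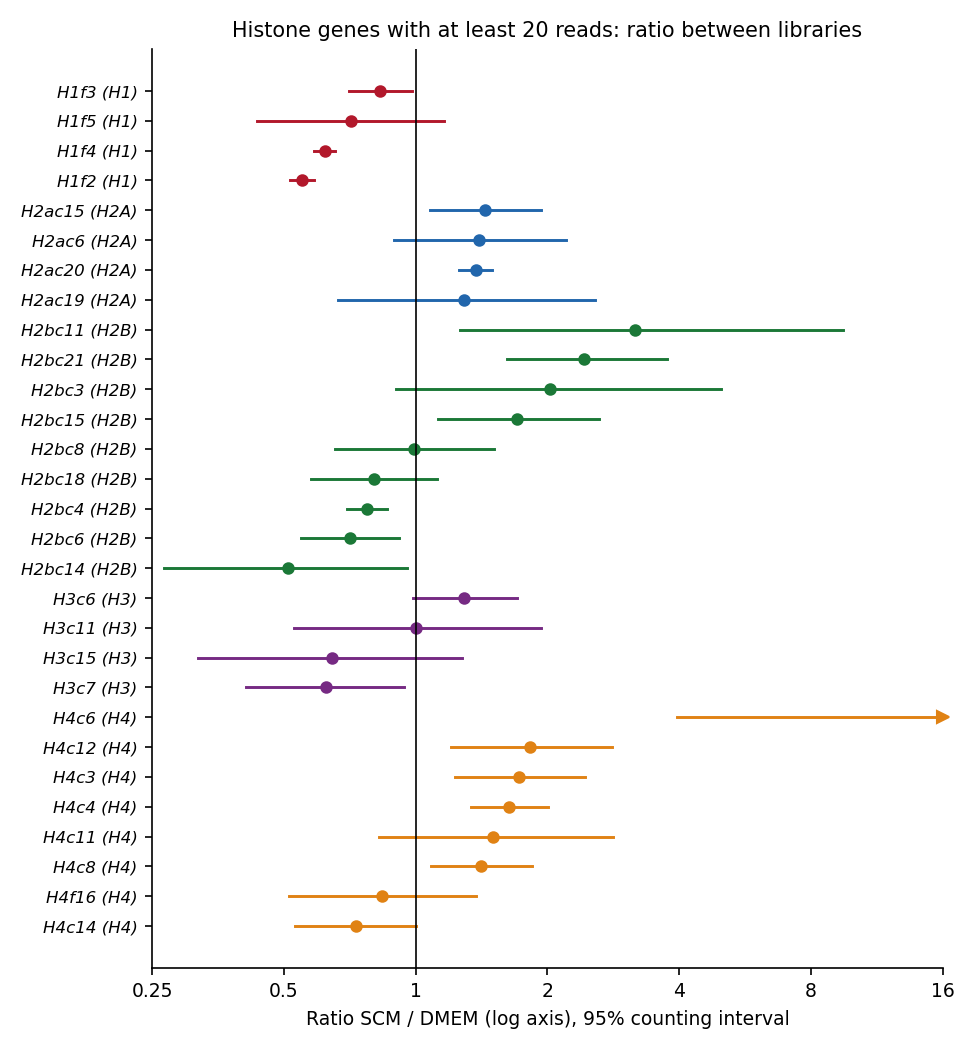
Ratio of SCM to DMEM (log axis) with 95% counting intervals for the 29 histone genes with at least 20 reads. The H1 genes lie left of 1, 6 of the 8 H4 genes right of 1 and the H2B genes on both sides, and the arrow marks H4c6, whose ratio of 23.8 lies outside the axis. Of the H4 genes right of 1, H4c6 and H4c11 reached 20 reads in SCM only.

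Among the linker histones, H1f2 (formerly Hist1h1c, ENSMUSG00000036181, encoding H1.2), at chromosome 13, 23738808 to 23740367 on the plus strand of GRCm38, had 2399 reads (52.9 FPKM) in DMEM against 1666 (29.1 FPKM) in SCM. It was 1.82-fold lower in SCM (1.70 to 1.93), with 3.82% of all measured rows at or below its log2 ratio of -0.84. H1f4 (Hist1h1e, ENSMUSG00000051627, encoding H1.4), at chromosome 13, 23620629 to 23622558 on the minus strand, had 2717 reads (48.4 FPKM) in DMEM against 2121 (30.0 FPKM) in SCM, 1.61-fold lower (1.53 to 1.71). The end of its span overlaps the start of the H2bc6 span on the same strand, and the row of Gm11398 overlaps both. H1f3 (H1.3) differed less, at 1.33 FPKM (287 reads) and 1.10 FPKM (300 reads), with a ratio of 0.829 (0.703 to 0.978) on a row of 7425 bases. For H1f5 (H1.5), at 38 reads in DMEM and 34 in SCM, the interval held 1 (0.433 to 1.16). H1f1 and H1f6, the testis linker histone H1t, stayed under 20 reads. All 6 H1 genes had a lower FPKM in SCM, but H1f2 and H1f4 held 93.8% of the H1 reads in DMEM and 91.6% in SCM, so the class sum is mainly theirs.

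H2ac20 (Hist2h2ac, ENSMUSG00000068855), at chromosome 3, 96220361 to 96220880 on the minus strand of GRCm38, was the highest core histone gene. It had 813 reads (53.8 FPKM) in DMEM against 1404 (73.6 FPKM) in SCM, a ratio of 1.37 (1.26 to 1.495), and held 83.4% and 82.7% of all H2A reads. Without it the H2A ratio was 1.44 (1.18 to 1.75). H2ac15 was also higher in SCM, at 6.56 FPKM (75 reads) and 9.44 FPKM (136 reads), a ratio of 1.44 (1.08 to 1.93). H2ac6 had 33 and 58 reads and H2ac19 16 and 26 reads, and both intervals held 1. Of the 17 H2A genes 16 overlap a short row typed as microRNA, and these 16 rows together held 2 reads in DMEM and 1 in SCM.

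H2B genes went both ways. H2bc4 (Hist1h2bc, ENSMUSG00000018102), the highest of them, had 718 reads (21.4 FPKM) in DMEM against 700 (16.5 FPKM) in SCM, a ratio of 0.773 (0.696 to 0.859). H2bc6 had 131 and 117 reads, with a ratio of 0.708 (0.547 to 0.916), and H2bc14 28 and 18 reads, with a ratio of 0.510 (0.266 to 0.955). In the other direction, H2bc21 (Hist2h2be) had 32 reads (0.420 FPKM) in DMEM against 98 (1.02 FPKM) in SCM, a ratio of 2.43 (1.62 to 3.74). H2bc15 had 35 and 75 reads, a ratio of 1.70 (1.12 to 2.62), and H2bc11 6 and 24 reads, a ratio of 3.17 (1.26 to 9.49). Thus 3 of the 9 H2B genes with at least 20 reads had an interval above 1 and 3 below 1. These shares are near the 29.2% and 34.4% of all rows with that many reads. H2bc11 reached 20 reads in SCM only and H2bc14 in DMEM only. H2bc18, H2bc8 and H2bc3 had intervals that held 1.

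H3 genes had few reads. The highest, H3c6, had 89 reads (3.66 FPKM) in DMEM against 145 (4.73 FPKM) in SCM, and its interval just held 1 (0.986 to 1.70). H3c7 had 56 and 44 reads, with a ratio of 0.623 (0.410 to 0.942). H3c11, at 1.59 FPKM in both libraries, and H3c15, at 0.708 and 0.455 FPKM, had intervals that held 1. Without H3c6 the H3 ratio was 0.805 (0.630 to 1.03).

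Of the 8 H4 genes with at least 20 reads, 5 had an interval above 1, beside 29.2% of all rows with that many reads. H4c8 (Hist1h4h), the highest, had 90 reads (6.58 FPKM) in DMEM against 160 (9.28 FPKM) in SCM, a ratio of 1.41 (1.08 to 1.85). H4c4 (Hist1h4d), at chromosome 13, 23581598 to 23582735 on the plus strand of GRCm38, had 4.38 FPKM (145 reads) and 7.17 FPKM (299 reads), a ratio of 1.64 (1.34 to 2.01). H4c12 had 3.75 and 6.82 FPKM, a ratio of 1.82 (1.20 to 2.81), and H4c3 2.22 and 3.82 FPKM, a ratio of 1.72 (1.23 to 2.43). These intervals come from the same libraries and do not replicate each other. The genes also share sequence, with 28.5% (H4c12) to 89.8% (H4c4) of their 50-base transcript windows found in no other gene. H4c6 (Hist1h4f) had 1 read in DMEM and 30 in SCM, a ratio of 23.8 with a counting interval of 3.96 to 971. H4c14 (Hist2h4) went the other way, at 86 and 79 reads, and its ratio of 0.729 had an interval that just held 1 (0.530 to 1.001). H4c11 and H4f16 had intervals that held 1. Without H4c4 the H4 ratio was 1.31 (1.14 to 1.497).

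The genes with fewer than 20 reads reached at most 1.21 FPKM in DMEM and 1.03 in SCM. All 36, including the 7 at 0, together held 148 reads in DMEM against 220 in SCM, a ratio of 1.18 (0.953 to 1.46). Of these, H2ac7 (2 and 15 reads), H2ac22 (1 and 11), H2ac8 (0 and 9) and H4c1 (2 and 12) had an interval above 1 and H3c8 (5 and 0) one below 1. They are named here after their values were seen. How often such intervals occur among all rows with fewer than 20 reads was not computed. Between 14.2% (H2ac22) and 59.6% (H4c1) of their 50-base transcript windows are found in no other gene. A few reads may therefore belong to other copies. Against a floor of 3 reads, H2ac8 was at least 2.38-fold higher in SCM and H3c8 at least 2.10-fold lower, taking the 9 reads of H2ac8 and the 5 of H3c8 as exact. Counting error in both libraries lowers these bounds to 1.57 and 1.16. The genes at 0 reads in both libraries were H2ac1 and H2bc1, which encode testis histones, and H2ac11, H2ac18, H2ac24, H2bc23 and H3c14.

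Histone genes share sequence, which limits how far their levels can be separated. In the GENCODE M21 transcripts, the share of 50-base windows found in no other gene, counting overlapping genes as other genes, ranged from 0% to 100% with a median of 45.0%. It was below 50% in 34 of the 65 genes. Class medians were 98.9% for H1, 60.5% for H4, 50.3% for H2B, 38.0% for H3 and 21.1% for H2A. The 7 genes at 0 reads had a median of 6.93%, those with 1 to 19 reads 34.2% and those with at least 20 reads 59.9%. H2ac18 and H2ac19 had 0% each, and the first is listed at 0 while the second had 16 and 26 reads. H2ac20 had 45.0% at 50 bases and 83.1% at 100 bases. Across the 65 genes this share and the FPKM had a Spearman correlation of 0.28 in DMEM and 0.26 in SCM, given as a description over genes that share sequence and 1 library each. Read length and the treatment of reads that match several places are not stated in the sources used. In genes with at least 50% of their windows unique, the ratio was 0.601 for H1, 1.39 (1.23 to 1.56) for H4 and 1.61 (1.05 to 2.52) for H2A, which then lacks H2ac20. It was 0.828 (0.758 to 0.905) for H2B and 0.783 (0.563 to 1.09) for H3.

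**Figure D4:**
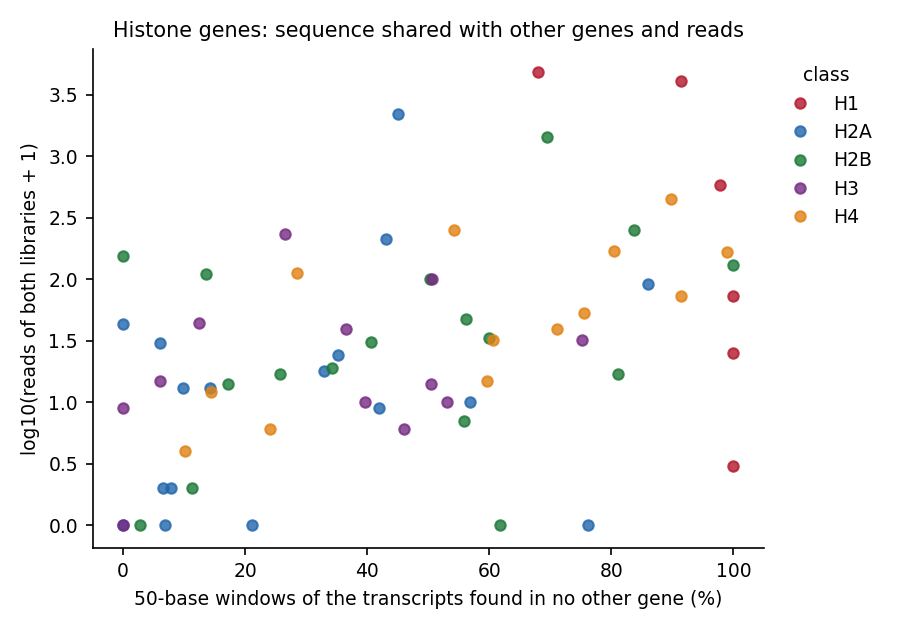
Share of 50-base transcript windows found in no other gene (percent) against log10 of the reads of both libraries plus 1, for all 65 histone genes, coloured by class. H1 genes lie at the right, from 68.0% to 100%, while H2A genes spread from 0% to 85.9%, with several at or near 0 reads.

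Core histone genes were also summed by length. The 45 core genes of up to 1000 bases had 1515 reads in DMEM and 2609 in SCM, a ratio of 1.37 (1.28 to 1.46). The 14 core genes over 1000 bases, had 1282 and 1472 reads, a ratio of 0.911 (0.845 to 0.982), which turned to 1.09 (0.973 to 1.21) without H2bc4. The shorter set was higher against the longer one by 1.4997 (1.36 to 1.66), and by 1.25 (1.08 to 1.45) without H2ac20 and H2bc4. In the longer set H2bc4 held 56.0% of the reads in DMEM and 47.6% in SCM. H2B, with H2bc4 among the longer genes, stood at 1.15 (0.967 to 1.38) for shorter and 0.817 (0.745 to 0.897) for longer genes, and H3 at 1.20 (0.963 to 1.51) and 0.696 (0.508 to 0.953). H4 was above 1 in both, at 1.597 (1.36 to 1.88) and 1.24 (1.06 to 1.45). For H1, the genes over 1000 bases (H1f2, H1f3 and H1f4) gave 0.600 (0.576 to 0.625) and the shorter ones 0.702 (0.461 to 1.06). By annotated end, the 19 core genes whose transcripts end within 50 bases of the stem-loop had 180 and 349 reads, a ratio of 1.54 (1.28 to 1.85). The 19 that run farther had 1576 and 2464 reads, a ratio of 1.24 (1.16 to 1.32), with H2ac20, at 57 bases past the stem-loop, among them, and the 21 with no stem-loop match 1041 and 1268 reads, a ratio of 0.966 (0.889 to 1.05). These last sums rest on single genes: without H2ac20 the genes that run farther gave 1.102 (1.003 to 1.21), and without H2bc4 the genes with no match gave 1.39 (1.21 to 1.604). Whether reads of the longer genes came from the part before or after the stem-loop was not tested, since the table gives 1 value per gene.

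The 250 bases upstream of the start are shown for both main H1 genes, for H2ac20 and for H4c4, because these had the most reads in the H1, H2A and H4 classes. The sequences are RefSeq promoters of GRCm38.p6, available for 59 of the 65 genes (60 promoters). Capitals mark matches on either strand to the 5 motifs spelled out after the sequences.
H1f2 upstream region, GRCm38.p6 chr13:23738557-23738806, plus strand: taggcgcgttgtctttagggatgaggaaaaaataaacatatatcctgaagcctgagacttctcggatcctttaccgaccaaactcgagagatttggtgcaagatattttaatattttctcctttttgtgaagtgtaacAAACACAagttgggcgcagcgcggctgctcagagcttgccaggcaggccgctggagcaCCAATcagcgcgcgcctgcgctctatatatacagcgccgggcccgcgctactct
H1f4 upstream region, GRCm38.p6 chr13:23622559-23622808, minus strand: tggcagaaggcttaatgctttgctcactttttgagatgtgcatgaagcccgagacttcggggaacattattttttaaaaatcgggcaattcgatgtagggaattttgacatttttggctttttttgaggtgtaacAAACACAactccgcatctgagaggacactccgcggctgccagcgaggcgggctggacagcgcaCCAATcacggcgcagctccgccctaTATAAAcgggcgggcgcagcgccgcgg
H2ac20 upstream region, GRCm38.p6 chr3:96220881-96221130, minus strand: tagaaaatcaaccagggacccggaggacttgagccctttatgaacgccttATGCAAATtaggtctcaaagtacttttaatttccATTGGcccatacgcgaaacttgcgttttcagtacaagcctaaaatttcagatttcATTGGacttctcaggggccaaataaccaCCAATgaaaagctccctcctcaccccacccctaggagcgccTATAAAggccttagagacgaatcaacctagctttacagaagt
H4c4 upstream region, GRCm38.p6 chr13:23581318-23581567, plus strand: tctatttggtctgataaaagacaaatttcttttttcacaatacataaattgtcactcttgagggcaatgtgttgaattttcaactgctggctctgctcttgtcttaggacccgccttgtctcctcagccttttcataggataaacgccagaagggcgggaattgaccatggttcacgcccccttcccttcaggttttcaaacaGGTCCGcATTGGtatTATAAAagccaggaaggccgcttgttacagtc
CCAAT, the binding sequence of NF-Y, was found on either strand in all 6 H1, all 17 H2A and all 15 H2B promoters, in 8 of 10 H3 and in 3 of 12 H4 promoters, against 33.85% of all 32851 promoters. AAACACA, known as the H1 box, was in 5 of 6 H1 promoters and in 6.25% of all. GGTCCG, part of the H4 element bound by Hinfp, was in 9 of 12 H4 promoters and in 6.72% of all. The octamer ATTTGCAT was in 7 of 15 H2B and 6 of 17 H2A promoters and in 1.601% of all, and TATAAA was in 28 of 60 member promoters and in 12.4% of all. The H2A and H2B counts are not independent. Many of these genes lie in pairs that face away from each other, with starts 176 to 306 bases apart. The windows of such partners overlap, so 1 site can count for both genes. In the 4 regions shown no match overlaps another. Matches describe the letters in this window and are not evidence of binding.

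Many H2A and H2B genes lie head to head. In GRCm38, 12 such pairs had starts 176 to 306 bases apart, and 1 further pair joined H2bc9 and H3c7. In 3 pairs both genes had at least 20 reads. H2ac20 and H2bc21, with 239 bases between their starts, were both higher in SCM, at ratios of 1.37 and 2.43, although their levels were far apart, at 53.8 and 0.420 FPKM in DMEM. H2ac15 and H2bc15 were both higher, at 1.44 and 1.70. In the pair of H2ac6 and H2bc4, the ratios were 1.39 (0.894 to 2.21) and 0.773 (0.696 to 0.859).

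Replacement histones stood at similar levels in both libraries when summed, at 244 FPKM for the 11 rows of that list. The H3.3 genes H3f3b (90.4 and 89.6 FPKM) and H3f3a (32.9 and 38.0 FPKM) had higher values than the summed clustered H3 genes, at 9.48 and 9.91 FPKM. That sum may be too low, since the clustered H3 genes had a median of 38.0% unique windows. How reads that match several places were counted is not stated. H1f0, which encodes the replacement linker H1.0, had 65.1 and 61.3 FPKM, a ratio of 0.942 (0.903 to 0.983), whereas H1f2 and H1f4 were 1.82-fold and 1.61-fold lower. H2az1, encoding H2A.Z, was lower in SCM at 18.4 and 10.3 FPKM, a ratio of 0.562 (0.508 to 0.621). H2aj, encoding the variant H2A.J, was higher at 10.5 and 18.9 FPKM, a ratio of 1.79 (1.62 to 1.99). H2ax, encoding the DNA damage histone H2A.X, had 4.94 and 4.0 FPKM. Among the 10 rows with at least 1 FPKM, 0 passed 2-fold in either direction, with a median log2 ratio of -0.05.

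Most genes that make and process histone mRNA had lower values in SCM. Of 17 such genes 16 had at least 20 reads, and the interval lay below 1 in 10 and above 1 in 2 (34.4% and 29.2% of all rows), with 0 of 15 measured genes past 2-fold and a median log2 ratio of -0.12. Slbp had 733 reads (4.15 FPKM) in DMEM against 683 (3.07 FPKM) in SCM, a ratio of 0.739 (0.665 to 0.821). Npat, the coactivator of histone gene loci in S phase, had 16.2 and 15.6 FPKM, with an interval that held 1 (0.916 to 1.01). Srrt, a partner of the cap-binding complex, had 34.6 and 22.9 FPKM, and Coil, encoding coilin of Cajal bodies, 9.35 and 6.84 FPKM. Against the same shares, the interval lay below 1 in 4 of 7 genes of histone mRNA decay, among them the 3′ exonuclease gene Eri1 at 4.32 and 3.21 FPKM and the helicase gene Upf1 at 28.1 and 22.0 FPKM, and above 1 in 1, Dcp2.

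Histone chaperones had 12 of 19 intervals below 1 and 3 above 1, beside 34.4% and 29.2% of all rows, with 0 of 17 measured genes past 2-fold and a median log2 ratio of -0.13. Rbbp7, a histone-binding subunit of several chromatin complexes, was higher in SCM at 115 and 179 FPKM. Daxx, a chaperone of H3.3, had 17.9 and 12.5 FPKM, and Hira, another, 1.39 and 0.777 FPKM.

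Markers of S phase, when clustered histones are made, and of mitosis were set beside these genes. Of 34 S-phase genes, 33 had at least 20 reads, and the interval lay below 1 in 14 and above 1 in 5, beside the 34.4% and 29.2% of all rows, with a median log2 ratio of -0.11 over 26 measured genes and 0 past 2-fold. Pcna, the sliding clamp of DNA polymerase, had 17.8 and 18.03 FPKM, and the replicative helicase genes Mcm3 and Mcm7 had ratios of 0.657 and 0.692. Ccne2, a cyclin of S-phase entry, had 1.28 and 2.40 FPKM, and Gins2 2.88 and 1.22 FPKM. All 9 mitotic genes had a higher FPKM in SCM, with an interval above 1 in 7, beside 29.2% of all rows with at least 20 reads. All 5 that reached 1 FPKM had a log2 ratio above 0, beside 45.8% of all such rows. Several of the 9 reached 20 reads or 1 FPKM in SCM only, which favours that side in these counts. Mki67, the proliferation marker, had 1.67 FPKM in DMEM and 4.50 in SCM, a ratio of 2.69 (2.43 to 2.98). These levels stand beside the higher H2A and H4 reads and the lower H1 reads, and their part in either was not tested.

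**Figure D5:**
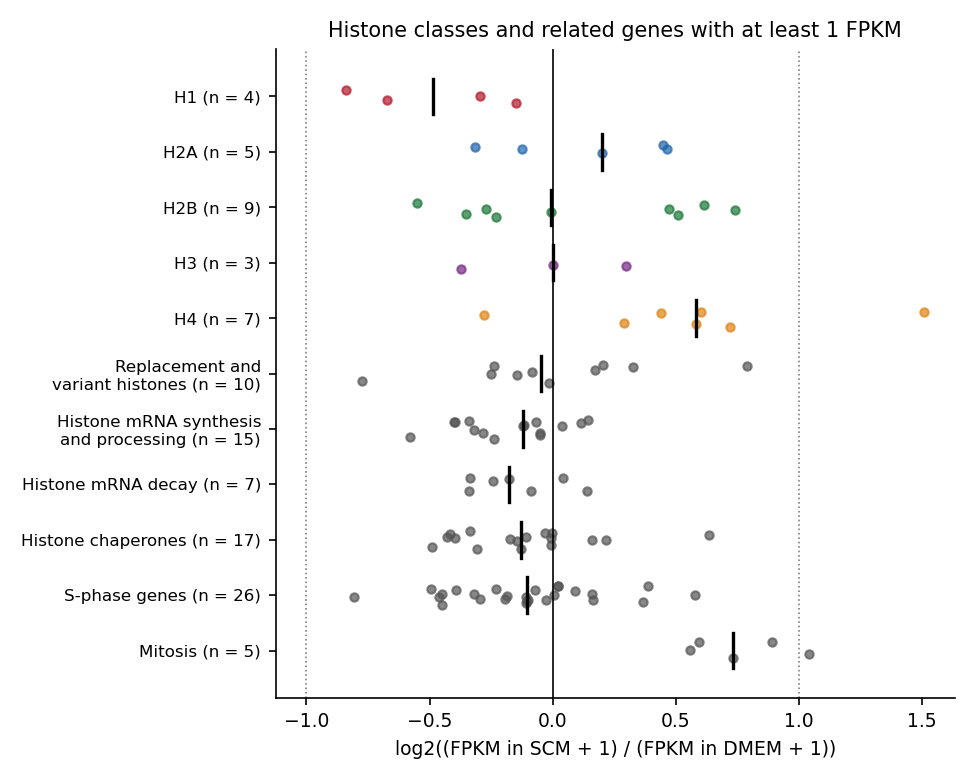
log2((FPKM in SCM + 1) / (FPKM in DMEM + 1)) for genes that reached 1 FPKM in either library, by histone class and by list of related genes, with a bar at each median and dotted lines at 2-fold. The H1 median is -0.48 and the H4 median 0.58, the related lists have medians from -0.18 to -0.05, and the mitosis list stands at 0.73. H4c6, H4c11 and some mitotic genes reached 1 FPKM in SCM only, which favours that side. Without the filter the medians were -0.24 for H1, 0.29 for H4 and 0.56 for the mitosis list.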

How the data were processed

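Total RNA from TgS1 cells, 1 sample per medium, had been turned into libraries with a stranded total RNA kit, per the labels' protocols. Tools in the submitters' processing notes were STAR 2.7.9a, featureCounts 2.0.1, Trimmomatic 0.39, cutadapt 3.1 and Trim Galore, with the builds GRCm38.p6 and mm10. The strand setting and the handling of multi-mapping or overlapping reads were not stated in the sources used. The deposited table gives FPKM values per gene, per the file headers. Each value times its gene's length in kilobases was a whole multiple of 1 step, with a library total of 1000000, so reads were recovered (100% of rows within 0.01 of a whole read). The table's columns were matched to the samples by the name of the medium. Their replicate numbers, 1 and 3, do not pair them.

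Ratios and exact intervals were computed with Python 3.11.15, SciPy 1.17.1 and pandas 2.3.3, and tested on simulated data. No count model was fitted and no p-value computed. Fold calls used log2(FPKM + 1). All 65 genes matched GENCODE M21 by identifier, with the same span but 0 at the same position, so printed positions are those of GRCm38. Members with at least 20 reads were named, and from other lists up to 6 genes with the largest log2 ratios among those with at least 1 FPKM, and a few fixed ones. The cell markers named and the split of core genes by annotated end were chosen after their values were seen. The members and lists were chosen with earlier results of these data known. Alternatives changed the pseudocount, filter, scaling, unit, fold threshold and the genes summed.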

Additional observations from a re-analysis of the deposited data

How the results depend on the processing

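With 1 library per medium no result has a replicate check, and depth limits single genes more than class sums. No paired analysis was possible because each medium had 1 library. The H4c6 call rests on 1 read in DMEM. The number of genes at least 2-fold higher in SCM was 3 with a pseudocount of 0.1 FPKM, 0 with a pseudocount of 3, 0 with a filter of 5 FPKM, 6 in TPM and 5 at 1.5-fold. The number lower was 1 in TPM and 2 at 1.5-fold. The median log2 ratio of the group, 0.10 in the main setting, was -0.0002 over the 58 genes with reads when no FPKM filter was used. It was 0.44 with a filter of 5 FPKM, 0.29 in TPM, 0.17 with a pseudocount of 0.1 and 0.05 with a pseudocount of 3. The TPM scale changes both the filter and the weight of the pseudocount, and without a filter on FPKM 1 of 58 genes was higher. Scaling by the median ratio of rows (a log2 shift of 0.03) or by protein-coding reads left every class ratio inside its interval. Shifts this small could not move a class ratio out of its interval.

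For all genes together the ratio was 0.873 without H1f4, 0.966 in summed FPKM, 0.660 for genes over 1000 bases, and reversed to 1.34 for those of up to 1000 bases. The genes over 1000 bases include H1f2, H1f3 and H1f4 and thus most H1 reads. The shorter genes gave 0.702 for H1, 1.20 for H3 and 1.597 for H4, and the longer ones 0.696 for H3 and 1.24 for H4. The H2B ratio reversed to 1.08 without H2bc4 and to 1.15 for shorter genes, both with intervals that held 1. The H3 ratio was 0.805 without H3c6. Of 4 alternatives chosen after seeing the data, leaving out the gene with most reads reversed the core genes over 1000 bases to 1.09, and moved those that run past the stem-loop to 1.102 and those with no stem-loop match to 1.39. Genes with at least 50% unique windows gave 0.690 for all, 1.61 for H2A and 0.783 for H3. Genes that overlap no other row gave 0.765 for all, and no value for H2A, since all 17 overlap a row. Adding H2aw and H2bu2 kept the sums inside their intervals. The cause of these differences was not tested. All 87 rescaled ratios of the 29 named genes stayed inside their counting intervals. This was fixed in advance, since each rescaling shifts all genes alike, by at most -0.06 in log2 (TPM). Even the narrowest gene intervals reach farther than that.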

Other observations

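Histone rows outside the naming rule added little to the picture. H2aw and H2bu2, formerly Hist3h2a and Hist3h2ba, have former symbols that match the rule. H2aw had 215 reads (3.44 FPKM) in DMEM against 302 (3.84 FPKM) in SCM, a ratio of 1.11 (0.932 to 1.33), and H2bu2 had 1 and 0 reads. The pseudogene rows H2ac14 and H2ac5-ps had 0 reads in both libraries. The germ cell linker histone genes H1f7, H1f8 and H1f9 had at most 3 reads in DMEM and 0 in SCM. Of processed copies of the H3.3 genes, H3f3a-ps1 had 16 and 15 reads and H3f3c 6 and 7 reads, beside 3355 and 4888 reads of H3f3a.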
